A study of Schizosaccharomyces pombe with 9 samples.

Results

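Messenger RNA of fission yeast (*Schizosaccharomyces pombe*) labelled *tup11∆/tup12∆* was compared with that of wild-type cells after 2 h of nitrogen starvation. This comparison rests on 2 of the 9 libraries of the series, 1 a side, and it was made over all 5323 features of the deposited table and in both directions, whereas the study had selected 17 genes. The other libraries hold the same genotypes, and one labelled *tup11∆/tup12∆/php5∆*, for 2 h in a glucose rich, a glucose-starved or a nitrogen-starved culture. The study asked how cells keep a gene that answers to lack of glucose silent when nitrogen is missing. The nitrogen starvation medium was a minimal medium without a nitrogen source, with 1% glucose and with the amino acids that the strains need. The glucose rich medium was yeast extract with 6% glucose, and the glucose starvation medium was yeast extract with 0.1% glucose and 3% glycerol. Per the methods, both corepressor genes were replaced with the *ura4* marker in a strain that lacks *ura4*, so that uracil synthesis differs between the strains together with the deletions. The libraries were poly(A)-selected and not strand-specific. The strain number and the mating type behind each library were not given in the sources used here.

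Tup11 and Tup12 are the fission yeast members of the Tup1 family of corepressors. They do not bind DNA themselves but are brought to promoters by sequence-specific factors such as Scr1, and together with Ssn6 they keep genes for other carbon sources and stress genes silent. At such genes the activators Atf1-Pcr1 and Rst2 bind the cAMP response element (CRE) and the stress response element (STRE). Nitrogen starvation, in turn, leads fission yeast to take up and break down poor nitrogen sources, to arrest before DNA replication and, through the HMG-box factor Ste11 and its TR-box sites, to mate and enter meiosis.

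Short stretches before the transcript starts of 4 genes that were higher in the library labelled *tup11∆/tup12∆* are shown, because they hold the letters of these elements near genes that the results below turn on. They were read from the ASM294v3 assembly and the RefSeq annotation of it, run 5′ to 3′ on the strand of the gene, and overlap no other annotated gene. Capitals mark the core: TGACGT for CRE, read on either strand, CCCCTC or CCCCGC for STRE, and TTCTTTGTT for the Ste11 TR-box. The first pair of lines comes from *wwm3*, the divergent neighbour of *fbp1*. The CRE core lies 66 bases and the STRE core 167 bases before the transcript start, at chrII:202179-202244 and chrII:202078-202143 on the plus strand.
wwm3 CRE: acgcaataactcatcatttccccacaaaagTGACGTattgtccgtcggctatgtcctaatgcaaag
wwm3 STRE: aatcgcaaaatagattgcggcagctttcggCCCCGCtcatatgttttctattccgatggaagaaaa
The second pair comes from *idn1*, the gluconokinase gene, where the cores lie 48 and 71 bases before the start, at chrI:2276786-2276851 and chrI:2276763-2276828 on the plus strand. Here the CRE core stands on the opposite strand, so that it reads ACGTCA, and the shown stretches overlap.
idn1 CRE: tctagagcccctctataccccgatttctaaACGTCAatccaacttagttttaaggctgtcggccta
idn1 STRE: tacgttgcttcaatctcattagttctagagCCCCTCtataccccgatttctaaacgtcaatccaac
The last lines show the TR-box core before *ste11* itself, 118 bases from the start at chrII:3983219-3983287 on the plus strand, and before *ste4*, 45 bases from the start at chrI:1296559-1296627 on the minus strand.
ste11 TR-box: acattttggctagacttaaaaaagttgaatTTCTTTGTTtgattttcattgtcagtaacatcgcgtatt
ste4 TR-box: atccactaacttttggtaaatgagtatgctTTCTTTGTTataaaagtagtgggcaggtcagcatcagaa

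The genes that mark the strains were examined first. Levels are given in TPM, in which reads are scaled by feature length and by library total. *tup11* had 67.4 TPM in wild-type cells as against 0.223 TPM in the library labelled *tup11∆/tup12∆*, from 6644 and 16 reads. *tup12* did not follow its label, with 157 TPM in wild-type and 72.7 TPM in mutant cells, from 14363 and 4841 reads. In the other media it lay nearer to the wild-type level and did not pass 2-fold. It had 107 and 89.2 TPM in the glucose rich medium and 151 and 117 TPM under glucose starvation. Whether the *tup12* reads come from a part of the gene that was not deleted was not tested, and the library is therefore called by its label throughout. *ura4*, which makes orotidine-phosphate decarboxylase for uracil synthesis, had 0 reads in wild-type cells and 3116 reads (101 TPM) in the mutant library, at least 1426-fold more when 3 reads are taken as the floor of the wild-type library. Other common marker genes differed less in level, with 86.0 and 69.8 TPM for *ade6* and 269 and 253 TPM for *leu1*. The strain list of the study holds strains with and without mutant alleles of both genes. The RNA level does not show which allele a library carries, so that a difference in these markers was not tested. The libraries held 48845411 reads for wild-type cells and 36652045 for the mutant, and a feature of median length with 3 reads had 0.0512 and 0.0702 TPM in them. The 10 most abundant features took 13.7% and 12.5% of the TPM. There is no replicate, so that a difference between these libraries has no replicate check and no p-value is given. The 95% intervals of ratios come from the reads and cover counting error only, as amplified reads are not independent molecules. In bulk RNA, a change in the share of cells that express a gene and in the RNA per cell cannot be told apart.

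A feature was called higher or lower when its TPM ratio passed 2-fold and the higher library had at least 10 TPM. Of 4896 features that reached this level, 260 (5.31%) were higher and 169 (3.45%) were lower in the library labelled *tup11∆/tup12∆*, and the median log2 ratio of all of them was 0.03. The higher features included all 17 genes that the study had selected on these libraries, which is no independent evidence, and 243 others, 1 of which is *ura4*. The lower ones included *tup11* and *tup12* and 167 others. The higher side reached further: 98 features were over 4-fold and 45 over 10-fold higher, against 24 and 9 on the lower side. The intervals lay wholly past 2-fold for 236 of the higher and 145 of the lower features. The split depended on how the libraries were scaled. With the upper quartile of the features made equal, the median of all features moved to −0.10 and the counts to 213 higher and 223 lower, 48.9% higher as compared with 60.6% with the deposited TPM. Overlapping transcripts cannot be told apart in these libraries, and 192 of the higher, 132 of the lower and 4223 of all 5323 features overlap another annotated gene.

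**Figure D1:**
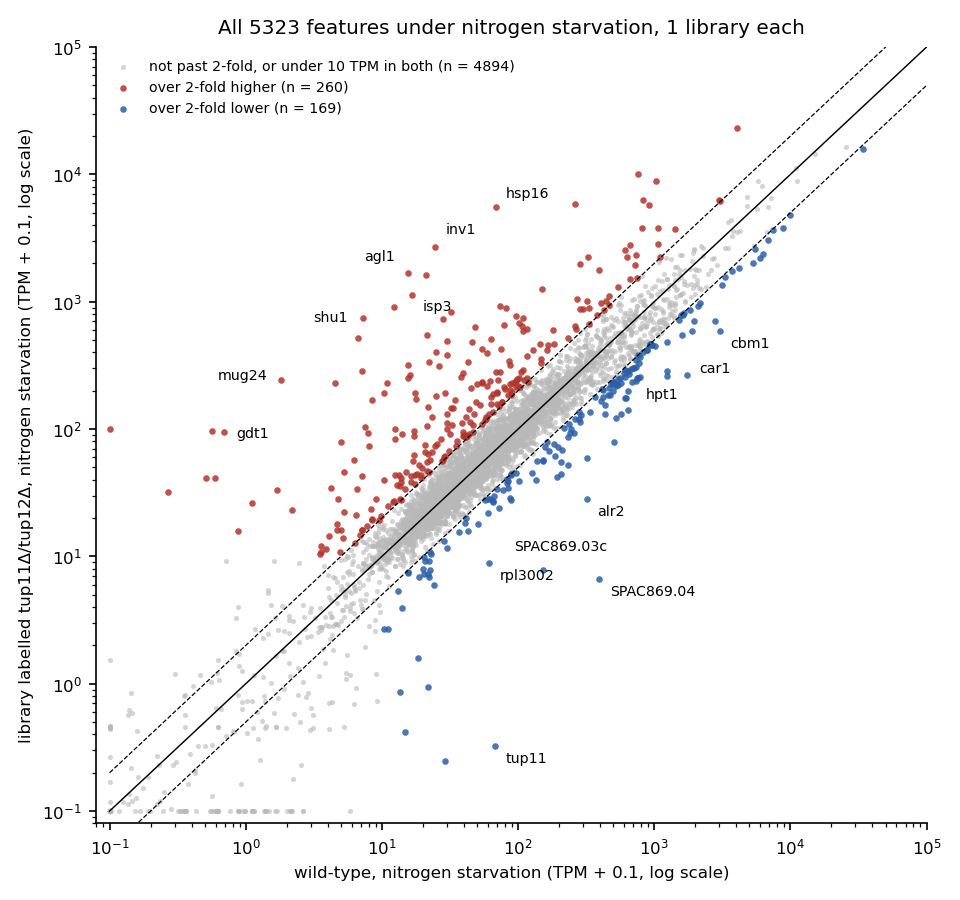
TPM plus 0.1 of each of the 5323 features under nitrogen starvation in wild-type cells (x axis) and in the library labelled tup11∆/tup12∆ (y axis), both on log scales, 1 library each, with the solid line at equal values and the dashed lines at 2-fold. The 260 higher features reach further from the line than the 169 lower ones, with tup11 and SPAC869.04 far below it.

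Of the 12 leading higher genes outside the selected ones, 5 encode enzymes that split sugars, a protein of haem uptake and stress proteins, a grouping made after the values were seen. *inv1* (chrIII:1724306-1726051), which encodes the secreted invertase that splits sucrose, had 24.6 TPM in wild-type cells as against 2712 TPM in the library labelled *tup11∆/tup12∆*, a ratio of 110 (95% interval 106 to 115). *agl1* (chrI:2968079-2970988), the alpha-glucosidase that splits maltose, had 15.4 and 1676 TPM, a ratio of 109 (104 to 113). Both of these enzymes act outside the cell on disaccharides. *shu1* (chrI:85598-86278), a cell-surface protein for haem uptake, had 7.18 and 750 TPM, a ratio of 104 (92.5 to 119). *hsp16* (chrII:2660490-2660921), a small heat shock protein, had 68.3 and 5579 TPM, a ratio of 81.6 (77.7 to 85.9). *cta3* (chrII:608171-611284), a P-type cation pump of the salt stress response, had 6.98 and 286 TPM, a ratio of 40.9 (38.6 to 43.4). In each of them the wild-type level was low but well above the floor of 3 reads.

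The other 7 include genes of meiosis and of the spore. *mug24* (chrIII:1919282-1921246), an RNA-binding protein of a set named for its upregulation in meiosis, had 1.71 and 242 TPM, a ratio of 142 (123 to 166). *isp3* (chrI:96000-96548), a protein of the spore coat, had 16.6 and 1136 TPM, a ratio of 68.2 (62.4 to 74.8). *ppk33* (chrIII:1558224-1559240), a protein kinase, had 4.44 and 228 TPM. Among genes with little or no known role, *SPAC186.04c* (chrI:5538574-5539101) had 13 and 1988 reads, which are 0.461 and 96.8 TPM, and its ratio of 210 has a wide interval of 122 to 395. Its neighbour *gdt1* (chrI:5540350-5541138), a GDT1-like membrane protein, had 0.593 and 94.3 TPM. *SPAPJ695.02* (chrI:75698-75910), uncharacterized, had 12.1 and 902 TPM, and *wwm3* (chrII:202536-202967) had 32.1 and 826 TPM. The 12 genes had log2 ratios of 6.73 down to 4.64, and the next gene, *ght7*, stood at 4.62.

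Of the 12 leading lower genes, 7 encode enzymes or transporters of amides, urea, amino acids and purines, a grouping made after the values were seen. *SPAC869.04* (chrI:5511137-5512369), a formamidase-like protein, had 394 TPM in wild-type cells as against 6.55 TPM in the library labelled *tup11∆/tup12∆*, 60.2-fold lower (95% interval of the mutant to wild-type ratio 0.0148 to 0.0186). Next to it, the urea transporter *SPAC869.03c* (chrI:5512757-5514742) had 152 and 7.72 TPM, 19.7-fold lower. *car1* (chrII:324191-325162), the arginase that splits arginine into ornithine and urea, had 1729 and 267 TPM, 6.48-fold lower. *SPAPB24D3.03* (chrI:2952416-2953642), an agmatinase, which also releases urea, had 508 and 79.1 TPM. *alr2* (chrII:107759-108871), an alanine racemase, had 320 and 28.2 TPM, 11.4-fold lower. *SPCC285.05* (chrIII:1802662-1803708), a purine nucleoside transporter, had 319 and 58.9 TPM, and *hpt1* (chrI:2155562-2156456), a xanthine phosphoribosyltransferase of purine salvage, had 1240 and 259 TPM. In wild-type cells in the glucose rich medium, *SPAC869.04* had 0.183, *SPAC869.03c* 0.356, *car1* 58.7 and *SPCC285.05* 11.3 TPM, so that these genes stood far higher in nitrogen-starved wild-type cells than in fed ones.

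The other 5 encode cell surface and ribosomal proteins. *cbm1* (chrI:2935510-2936103), a protein with a cellulose-binding domain, had 3023 and 584 TPM. *eng1* (chrI:998953-1002003), the endoglucanase that opens the septum between daughter cells, had 207 and 44.5 TPM, and *adg1* (chrI:5265853-5266353), a cell surface glycoprotein, had 644 and 140 TPM. The ribosomal protein gene *rpl3002* (chrI:5095211-5095810) had 61.3 and 8.71 TPM, and *rpp203* (chrI:3869145-3869571) had 192 and 41.8 TPM. Both have paralogs, but no stretch of 50 bases in either gene is repeated elsewhere in the genome. The 12 log2 ratios ran from −5.71 to −2.17, with *SPBC359.01*, an amino acid permease, next at −2.13. Of the 24 leading genes, 18 overlap another annotated gene, and *inv1*, *hsp16*, *SPAPJ695.02*, *SPAC186.04c*, *gdt1* and *hpt1* do not.

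The library labelled *tup11∆/tup12∆/php5∆*, which lacks also a subunit of the CCAAT-binding factor, gives values beside this pair, and it was not used to rank the genes. The 17 selected genes, left out of the leading ones, had been selected in part for an over 2-fold fall in this library. Which leading genes stand higher in this library is therefore not free of that selection. *inv1*, *agl1*, *shu1*, *hsp16*, *cta3*, *gdt1* and *wwm3* were higher there than in the library labelled *tup11∆/tup12∆*, as with 3207 TPM for *inv1*, 2007 TPM for *shu1* and 14973 TPM for *hsp16*. *isp3* stood at 33.0 TPM, *ppk33* at 46.9 TPM and *mug24* at 77.0 TPM, all between both of the other libraries. *rpl3002* had 48.4 TPM and *rpp203* 159 TPM, nearer to their wild-type levels, while *SPAC869.04* had 3.29 TPM and *cbm1* 116 TPM, below both of the other libraries.

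**Figure D2:**
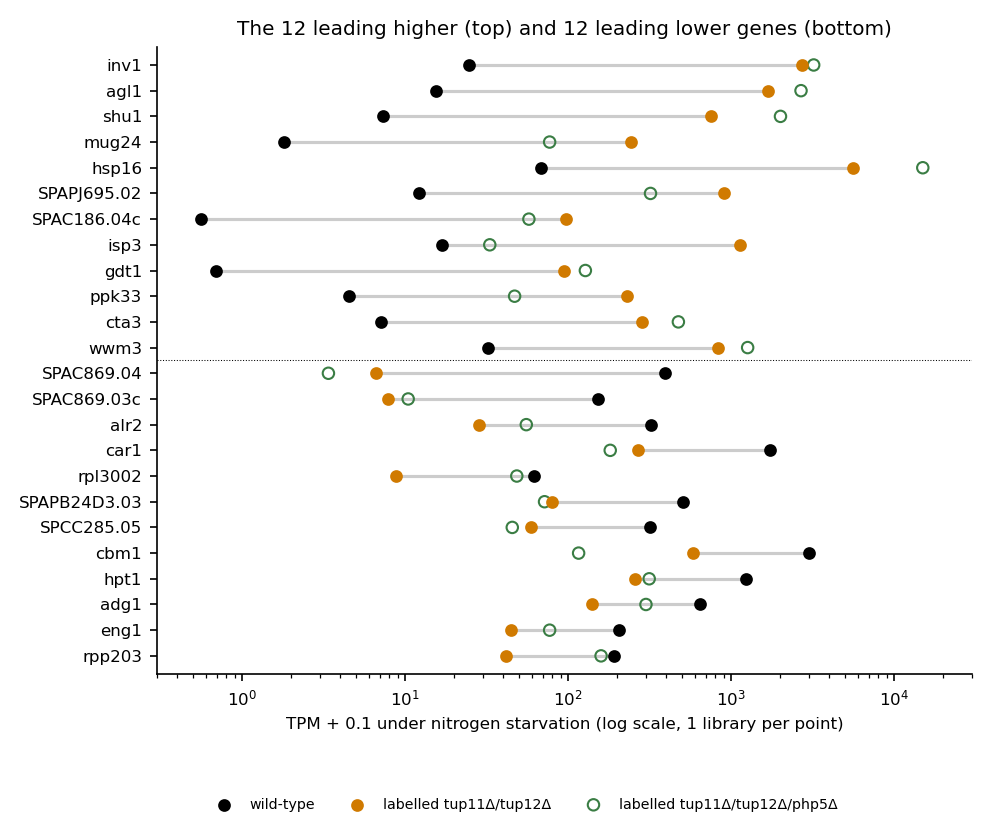
TPM plus 0.1 under nitrogen starvation (x axis, log scale) of the 12 leading higher genes (above the dotted line) and the 12 leading lower genes (below it) in wild-type cells (black), the library labelled tup11∆/tup12∆ (orange) and the library labelled tup11∆/tup12∆/php5∆ (open green), 1 library per point. The triple mutant lies past the orange point for 7 of the upper genes, while for isp3 (33.0 TPM) and rpl3002 (48.4 TPM) it lies near wild-type cells. The 17 genes selected by the study, in part for a fall in the triple mutant, are left out.

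The list counts here and below stand beside the shares over all tested features, 5.31% higher and 3.45% lower. Genes for hexose uptake and for the use of other carbon sources stood higher as groups. Of 8 hexose transporter genes, 6 were higher and none was lower, with a median log2 ratio of 2.61 as compared with 0.03 for all features, and of 14 genes of carbon source use, 10 were higher and none was lower, with a median of 3.08. Members of both groups are among the 17 genes that the study selected on these libraries, so that their direction is not independent evidence. They are *ght1* and *ght3* among the transporters and *fbp1*, *mal1*, *gld1*, *dak2*, *pdc201* and *ach1* among the carbon source genes. The higher carbon source genes apart from these were *inv1*, *agl1*, *gut2* and *dak1*. *ght7* had 21.4 TPM in wild-type cells as against 550 TPM in the library labelled *tup11∆/tup12∆*, with 14.7 TPM in the triple mutant. *ght6* had 17.3 and 193 TPM, with 619 TPM in the triple mutant. *ght1* had 8.34 and 169 TPM. The high-affinity glucose transporter *ght5* was already abundant in wild-type cells, with 631 TPM, and had 2230 TPM in the mutant library. By contrast *ght8*, with 592 and 318 TPM, and *ght2*, with 97.9 and 141 TPM, did not pass 2-fold. The median *ght* gene has 11.3% of its sequence repeated elsewhere, and reads may be split between copies. *gut2*, the mitochondrial glycerol-3-phosphate dehydrogenase, had 25.0 and 401 TPM, and the dihydroxyacetone kinase gene *dak1* had 287 and 1961 TPM. The aldehyde and acetate genes *atd1* (1170 and 1651 TPM), *acs1* (147 and 131 TPM) and *adh4* (66.9 and 81.5 TPM) did not pass 2-fold.

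Small groups of genes were found after their values were seen. All 3 genes of the galactose cluster were higher: the galactokinase gene *gal1* with 31.9 and 147 TPM, the transferase gene *gal7* with 22.0 and 334 TPM and the epimerase gene *gal10* with 4.90 and 78.3 TPM. Of the genes of gluconate use, all 4 were higher, and apart from *ght3* they were *idn1*, the gluconokinase, with 328 and 2263 TPM, *gcd1*, annotated as a glucose-6-phosphate dehydrogenase, with 29.9 and 492 TPM, and *gti1*, an inducer of gluconate transport, with 10.3 and 40.0 TPM. In the cAMP pathway, by which glucose is sensed, 2 of 8 genes were higher, namely the G protein alpha subunit gene *gpa2* with 54.4 and 230 TPM and the phosphodiesterase gene *cgs2* with 44.4 and 114 TPM. The adenylate cyclase gene *cyr1* (22.6 and 37.7 TPM) and the kinase gene *pka1* (117 and 176 TPM) did not pass 2-fold. Because these groups were put together after the values were seen, their counts describe these genes and nothing more.

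In the citric acid cycle, 5 of 13 genes were higher and none was lower, and all 13 had log2 ratios above 0, with a median of 0.94. Malate dehydrogenase *mdh1* had 614 and 2568 TPM, a ratio of 4.19 (4.13 to 4.24), and citrate synthase *cit1* had 717 and 1951 TPM, a ratio of 2.72. The succinate dehydrogenase subunit gene *sdh1* had 445 and 1007 TPM, and the oxoglutarate dehydrogenase gene *kgd1*, which the study had selected, had 86.3 and 225 TPM. *idh2* stood just at the limit with a ratio of 2.00 (1.97 to 2.04), and under the 3 other scalings 4 genes of the list were past 2-fold. On the glycolysis list, 1 of 15 genes was higher and none was lower, with a median of 0.27. That gene was *gpd3*, the second glyceraldehyde 3-phosphate dehydrogenase, with 909 and 5739 TPM and 11339 TPM in the triple mutant, whereas the major isozyme *tdh1* had 10922 and 11142 TPM.

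Of 11 iron uptake genes, 7 were higher and none was lower, with a median log2 ratio of 1.65, and 6 were higher with median-of-ratios or upper-quartile scaling. Besides *shu1*, these were the ferric reductase gene *frp1* with 29.1 and 192 TPM, the siderophore synthesis gene *sib2* with 68.9 and 282 TPM, and the ferroxidase gene *fio1* with 59.3 and 219 TPM. The triple mutant stood higher again, with 456 TPM for *frp1* and 641 TPM for *sib2*. *fep1*, the GATA factor that represses iron uptake when iron is plentiful, had 60.1 and 50.7 TPM, while *php4*, the subunit that turns the CCAAT-binding factor into a repressor under low iron, had 84.7 and 39.0 TPM, 2.17-fold lower. Of 5 phosphate genes, 3 were higher, namely the acid phosphatase gene *pho1* with 33.0 and 145 TPM, the phosphate transporter gene *pho84* with 71.6 and 241 TPM and the glycerophosphodiester transporter gene *tgp1* with 63.0 and 180 TPM. *pho7*, their activator, had 36.2 and 29.5 TPM.

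Of 19 genes of the core stress response and of trehalose metabolism, 6 were higher and 1 was lower, and the median log2 ratio was 0.71. Over all tested features the shares were 5.31% higher and 3.45% lower. Besides *hsp16* and *cta3*, *zym1*, a metallothionein, had 760 and 10115 TPM, a ratio of 13.3 (13.0 to 13.7), and *pyp2*, a phosphatase of the stress kinase Sty1, had 7.87 and 73.7 TPM. The lower gene was *trr1*, thioredoxin reductase, with 882 and 414 TPM. Genes for catalase and for trehalose synthesis did not pass 2-fold, with 239 and 434 TPM for *ctt1* and 310 and 496 TPM for *tps1*. In the triple mutant *ctt1* had 2167 TPM. Among the corepressor and its partners, 2 of 10 genes were higher and *php4* was lower. *rst2*, which encodes the STRE-binding activator, had 69.9 and 195 TPM, and *ssn6* had 12.8 and 36.3 TPM, while *scr1* (32.9 and 55.4 TPM), *atf1* (110 and 141 TPM) and *pcr1* (104 and 109 TPM) did not pass 2-fold.

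The switch to mating and meiosis, the cell's own answer to lack of nitrogen, was examined next. Of 18 genes, 9 were higher and none was lower, with a median log2 ratio of 0.95. *rgs1*, which dampens pheromone signalling, had 15.5 and 320 TPM, a ratio of 20.7 (19.5 to 22.0). *mei2*, the RNA-binding protein that starts meiosis, had 24.9 and 181 TPM, a ratio of 7.28 (7.0 to 7.57). *gpa1*, the G protein subunit below the pheromone receptors, had 102 and 685 TPM, and *spk1*, the MAP kinase of the same pathway, had 74.4 and 423 TPM. *ste11*, the factor that drives them, had 31.5 and 92.1 TPM, a ratio of 2.92 (2.78 to 3.07). Each of these 5 genes lay lower in the triple mutant, with 39.9 TPM for *rgs1*, 76.8 TPM for *mei2*, 246 TPM for *gpa1*, 104 TPM for *spk1* and 28.5 TPM for *ste11*. *mei3*, the inhibitor of the Pat1 kinase (0.461 and 0.230 TPM), and *mei4*, the forkhead factor of middle meiosis (4.06 and 3.51 TPM), were under 10 TPM in both libraries and could not be called. *fus1*, which acts in cell fusion, had 7.17 and 12.8 TPM and did not pass 2-fold.

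Genes of both mating types had reads in both libraries. Of 4 genes of P cells, 2 were higher: *map1*, the MADS-box factor of P cells, with 18.5 and 51.7 TPM, and *map2*, the P-factor precursor, with 43.2 and 144 TPM. *map3* had 24.8 and 35.0 TPM and *map4* 9.67 and 13.0 TPM. Of 8 genes of M cells, 1 was higher, the M-factor precursor gene *mfm1* with 4.94 and 15.9 TPM, whose short length left a wide interval of 2.14 to 4.98. The other pheromone genes had 24.3 and 28.8 TPM for *mfm2* and 44.1 and 27.5 TPM for *mfm3*. The M-factor exporter gene *mam1* had 14.2 and 27.6 TPM, the P-factor receptor gene *mam2* 33.9 and 25.9 TPM, the adhesin gene *mam3* 15.9 and 24.8 TPM and the M-factor methyltransferase gene *mam4* 35.2 and 40.7 TPM, and the protease gene *sxa2* had 17.1 and 18.4 TPM. The summed level was 96.1 and 243 TPM for the P genes and 190 and 210 TPM for the M genes. The mating type of the strains, and its part in these values, was not tested.

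Genes that salvage or break down nucleosides and bases stood lower, in a group put together after the values were seen. Of 32 genes, 15 were lower and none was higher, with a median log2 ratio of −0.87, and the summed level was 67885 TPM in wild-type cells as against 34745 TPM in the library labelled *tup11∆/tup12∆*. The most abundant of them was *urg2*, a putative uracil phosphoribosyltransferase, with 34017 and 15702 TPM. In wild-type cells it had 39.9 TPM in the glucose rich medium, so that it stayed far above the fed level in the mutant library too. The purine nucleoside phosphorylase *SPAC1805.16c* had 2786 and 704 TPM, the nucleoside hydrolase *SPBC800.11* had 1234 and 287 TPM, and the uridine ribohydrolase *urh1* had 3317 and 1560 TPM. *dal2*, an allantoicase, had 1524 and 723 TPM, and the cytidine deaminase gene *cdd1* had 3732 and 1755 TPM. *uck2* did not pass 2-fold, with 7195 and 6554 TPM. As *ura4* is present in 1 strain and absent from the other, the part of uracil synthesis in these values cannot be told apart from that of the corepressors.

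A second group put together after the values were seen held 26 genes of arginine, urea and amide breakdown, of which 9 were lower and none was higher, with a median of −0.47. Besides the leading genes, the ornithine transaminase *car2* had 751 and 249 TPM and *put2*, the next enzyme on the way to glutamate, had 759 and 254 TPM. *SPBC8E4.03*, a second agmatinase, had 1233 and 484 TPM. The proline permease *put4* was alike in both libraries, with 845 and 834 TPM. In contrast, the list of 19 nitrogen scavenging genes, which holds ammonium and amino acid transporters and vacuolar proteases, was split, with 3 higher, 2 lower and a median of −0.09. *gdh1* and *gdh2*, the glutamate dehydrogenases, had 3056 and 6225 TPM and 13.3 and 43.7 TPM. *aat1*, an amino acid permease next to *alr2*, had 186 and 61.4 TPM, and *gaf1*, the GATA factor of nutrient sensing, had 62.6 and 28.4 TPM. *isp5*, a permease among the 17 selected genes, had 332 and 670 TPM and a ratio of 2.02 (1.99 to 2.05), and with median-of-ratios or upper-quartile scaling the list had 1 higher and 3 lower genes. The ammonium transporter *amt1*, with 224 and 148 TPM, and *isp7*, with 1203 and 631 TPM, did not pass 2-fold.

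Ribosomal protein genes made up a large part of the lower features. Of 141 genes of the cytosolic ribosome, 48 were lower and none was higher, 139 had log2 ratios below 0, and the median was −0.81. Their summed level was 124430 TPM in wild-type cells as against 74919 TPM in the library labelled *tup11∆/tup12∆*. The count of lower genes was 58 with median-of-ratios scaling, 63 with upper-quartile scaling and 50 without the 10 most abundant features. *rpl3702* had 617 and 177 TPM and *rps2601* had 607 and 175 TPM, the furthest below wild-type cells after *rpl3002* and *rpp203*. None of 53 genes of ribosome biogenesis passed 2-fold, and their median was −0.16. In all, 54 of the 169 lower features are genes for ribosomal proteins or histones.

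Histone genes, which are expressed when DNA is replicated, were also on the lower side. Of 10 genes, 6 were lower and none was higher, with a median log2 ratio of −1.07, and the summed level was 52107 and 26726 TPM. *hht1* had 5933 and 2212 TPM, *hhf3* 6244 and 2371 TPM, *hhf1* 8840 and 3757 TPM, and *hta1* 3167 and 1358 TPM. In the glucose rich medium they had 1340 and 1059, 1199 and 1378, 1768 and 1586, and 1076 and 708 TPM in the same order. Each of them thus stood above its fed level in both nitrogen-starved libraries, and less far above it in the mutant library. The pair *hht2* (3741 and 3298 TPM) and *hhf2* (4036 and 3545 TPM) did not pass 2-fold, and neither did *pht1*, the H2A.Z variant, with 347 and 453 TPM. Stretches of 50 bases that are repeated elsewhere in the genome make up 1.90% of *hhf2* and *hhf3* and 0% of the other histone genes. Of 15 cell cycle genes, 3 were lower and 1 was higher, with a median of −0.47. The lower ones included *adg1* and *eng1*, and the higher one was *srw1*, which promotes arrest before replication, with 39.2 and 94.0 TPM. The replication genes *cdc18* (56.7 and 51.4 TPM) and *cdc22* (454 and 298 TPM) did not pass 2-fold.

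Sets taken by gene name, the *mug* genes and the *spo*, *meu* and *spn* genes, had medians near the centre. Of 91 *mug* genes, 76 reached 10 TPM in the higher library, 13 were higher and 3 were lower, with a median of 0.10. Of all tested features 5.31% were higher and 3.45% lower, so that the share of higher genes was larger among the *mug* genes. Of 38 *spo*, *meu* and *spn* genes, 1 was lower and none was higher, with a median of 0.03. With upper-quartile scaling, which moves all features down alike, both medians were below 0, and relative to the median of all features they stood at 0.067 and −0.0035. Besides *mug24* and the selected *mug14*, the largest differences were those of *mug146*, with 10.3 and 191 TPM, and *mug114*, with 15.4 and 252 TPM. *mug5* (22.2 and 6.77 TPM), *mug73* (20.1 and 7.23 TPM) and *mug37* (22.2 and 9.08 TPM) were lower, as was *meu43* (20.0 and 7.90 TPM). Of 5 *isp* genes, *isp3* and *isp5* were higher. Of 28 autophagy genes, only *atg43*, a receptor for mitochondria, was past 2-fold, with 146 and 330 TPM.

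Among 14 matched flocculin genes and their regulators, 4 were higher and 2 were lower, and the median was 0.13, or with upper-quartile scaling 0.097 above that of all features and just under 0 itself. *cbf12*, a CSL-family factor, had 6.42 and 33.9 TPM, *gsf2*, the flocculin of galactose-dependent flocculation, had 4.59 and 18.0 TPM, *pfl7* had 9.01 and 27.9 TPM, and *pfl8* had 35.6 and 80.9 TPM. *pfl9* had 14.6 and 0.314 TPM, 46.5-fold lower, and *pfl2* had 209 and 68.6 TPM. Thus members of this family lay on both sides. The *wtf* genes, a family of spore killers and their suppressors, had 5 lower and no higher genes of 25. They were *wtf5* with 127 and 44.8 TPM, *wtf20* with 18.6 and 6.78 TPM, *wtf22* with 13.1 and 5.29 TPM, *wtf10* with 28.3 and 13.0 TPM, and *wtf6*. Of these, *wtf5*, *wtf20* and *wtf10* are annotated as antidote-like suppressors of meiotic drive and *wtf22* as a pseudogene. The copies of the family are so alike that the median member has 50% of its sequence repeated elsewhere, and the split of reads between them is uncertain.

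**Figure D3:**
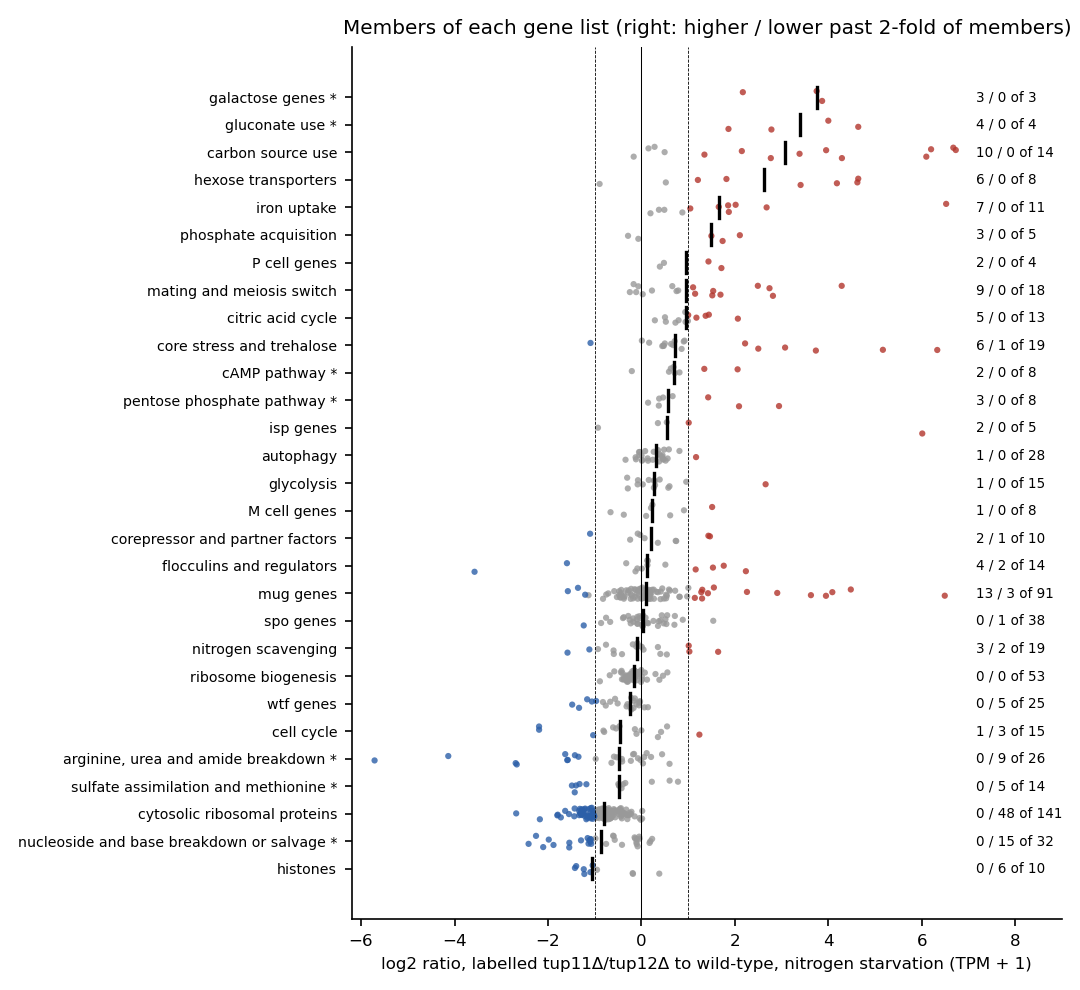
Log2 ratio of TPM plus 1 under nitrogen starvation, mutant label over wild-type (x axis), for each member of the gene lists (rows), with red for higher, blue for lower, grey for not past 2-fold or under 10 TPM, black bars for medians, dashed lines at 2-fold, and an asterisk for lists put together after the values were seen. Carbon source genes (median 3.08) and hexose transporters (2.61) lie to the right, ribosomal proteins (−0.81) and histones (−1.07) to the left. The carbon source and hexose transporter lists hold genes that the study selected on these libraries.

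The same pair of genotypes in the other media used no library of the nitrogen comparison, so that the calls can be set beside each other. In the glucose rich medium, 156 (3.31%) of 4706 features were higher and 51 (1.08%) lower in the library labelled *tup11∆/tup12∆*. Of the features higher under nitrogen starvation, 114 were higher there too, which is 43.8% of the nitrogen list and 73.1% of the glucose rich list. On the lower side 19 were shared, 11.2% and 37.3% of the lists. Under glucose starvation, 194 (4.0%) of 4852 features were higher and 292 (6.02%) lower, with 111 shared higher features (42.7% and 57.2%) and 54 shared lower ones (32.0% and 18.5%). In all 3 media, 59 features were higher and 17 were lower, while 94 of the higher and 113 of the lower ones were called in that direction under nitrogen starvation alone. A feature under 10 TPM in both libraries of another medium could not be called there, as *pfl9* with 9.09 and 0.664 TPM in the glucose rich medium. Of the 260 higher features, 218 had log2 ratios above 0 in the glucose rich medium and 205 under glucose starvation. Of the 169 lower ones, 50 and 24 did. The differences between media have no replicate and were not tested.

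The gene groups followed these patterns unequally. The iron uptake genes stood higher in each medium, with medians of 1.65 under nitrogen starvation, 2.80 in the glucose rich medium and 2.32 under glucose starvation. *shu1* had 0.0885 and 170 TPM in the glucose rich medium and 0.542 and 249 TPM under glucose starvation. Its wild-type level in the glucose rich medium was near the floor, so that the size of that ratio is uncertain. In that library a feature of median length with 3 reads had 0.0412 TPM. The hexose transporters had medians of 2.42 in the glucose rich medium and −0.56 under glucose starvation, where 2 were higher and 2 lower. There *ght7* had 3.24 and 548 TPM and *ght6* 50.2 and 379 TPM, while *ght5* had 3522 and 1418 TPM. *inv1* had 8.03 and 678 TPM in the glucose rich medium but 1738 and 1642 TPM under glucose starvation, and *agl1* had 2.56 and 92.9 TPM and then 781 and 726 TPM. Ribosomal proteins had a median of 0.04 in the glucose rich medium and −0.55 under glucose starvation, and histones had −0.15 and −0.31. The corresponding medians of all features were −0.18 and −0.32, so that the ribosomal protein genes stood lower against all features under nitrogen starvation and under glucose starvation but not in the glucose rich medium. *SPAC869.04* had at most 2.19 TPM in the other 4 libraries of these genotypes.

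**Figure D4:**
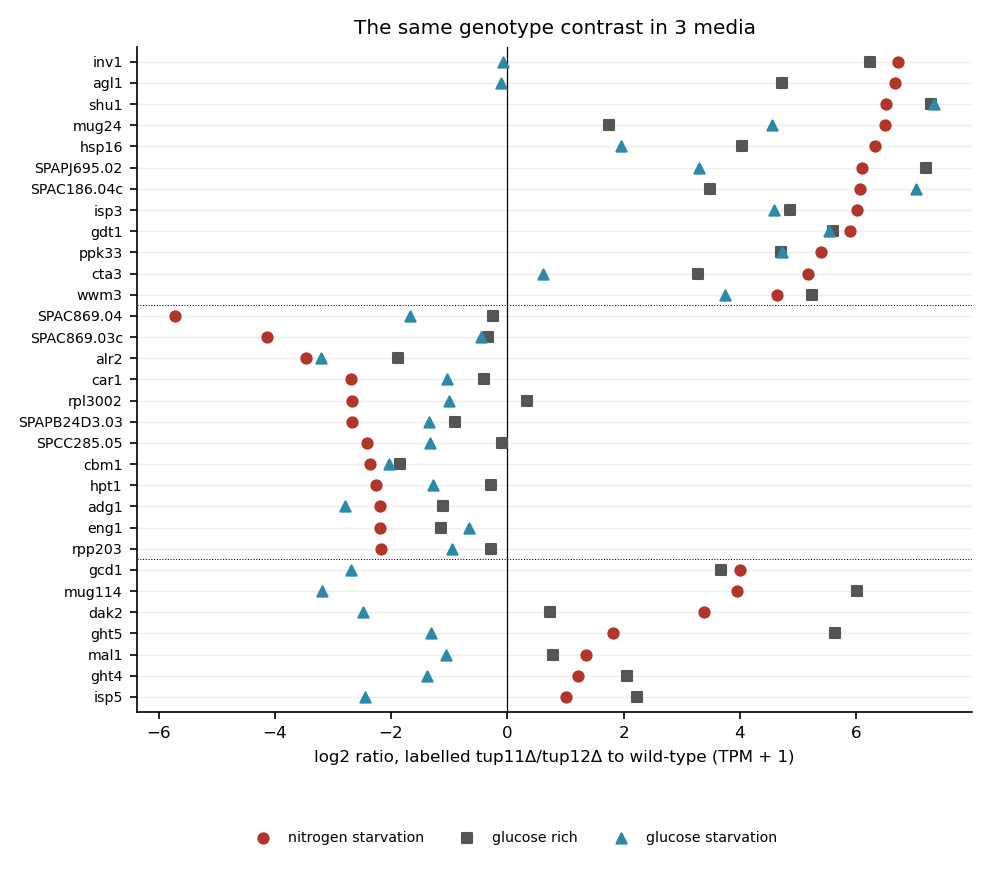
Log2 ratio of TPM plus 1, mutant label over wild-type (x axis), under nitrogen starvation (red circles), glucose rich (grey squares) and glucose starvation conditions (blue triangles), 1 library a side, for the 12 leading higher genes, the 12 leading lower genes and 7 genes that lie on opposite sides in both starvation media (separated by dotted lines). inv1 and agl1 lie near 0 under glucose starvation, and mug114 lies at −3.19 there.

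The higher genes were then set against the answer of wild-type cells to glucose starvation, a comparison that shares no library with the nitrogen pair. In wild-type cells, 928 (19.2%) of 4836 features were higher and 457 (9.45%) lower under glucose starvation, as compared with the glucose rich medium. Of the 260 features higher in the library labelled *tup11∆/tup12∆* under nitrogen starvation, 150 (57.7%) were among those 928, of which they make up 16.2%, and 7 were among the 457. The 17 selected genes are part of these 150 by the rule that selected them. Of the 169 lower features, 24 were among the 928 and 51 (30.2%) among the 457. *hsp16* had 98.5 TPM in wild-type cells under glucose rich and 5616 TPM under glucose starvation conditions, and *zym1* had 77.7 and 13720 TPM. Some leading genes lay outside that answer, as *isp3* with 14.4 and 14.9 TPM, *gdt1* with 1.05 and 1.61 TPM, and *ppk33* with 1.91 and 2.76 TPM.

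The share of called features differed along the chromosomes. Within 100 kb of the ends of chromosomes I and II lie 135 features, of which 24 (17.8%) were higher and 12 (8.89%) lower, as compared with 236 (4.55%) and 157 (3.03%) of the 5188 others. Few features near the ends reach 10 TPM, and a gene that does so through its higher library alone had to differ. Among features with at least 10 TPM in wild-type cells, 15 of 50 (30%) near the ends were higher, against 196 (4.12%) of 4756 elsewhere. The ends also hold repeated sequence, where the assignment of reads is less certain. No test was made of these shares.

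Some called features were neighbours on the same side. There were 30 runs of adjacent higher features with 73 genes, 28.1% of the higher ones, and 16 runs of lower features with 37 genes, 21.9% of the lower ones. The longest higher run had 7 genes on the left arm of chromosome I from 64904 to 90259: *dak2*, the MIP channel family gene *SPAC977.17*, *SPAPJ695.02*, *SPAPJ695.01c*, *ght3*, *shu1* and the siderophore transporter gene *str3*. The longest lower run had 6 genes at the other end, from 5505900 to 5528672: the sulfate transporter gene *sul2*, *SPAC869.04*, *SPAC869.03c*, the nitric oxide dioxygenase gene *yhb1*, the amidase gene *SPAC869.01* and *pfl9*. *SPAC869.01*, chosen after its values were seen, had 29.0 and 0.147 TPM. Beyond that run towards the end lie *SPAC186.04c*, *gdt1* and *SPAC186.06*, all higher. Other runs were *gal7*, *tgd1*, *gal10* and *gal1* on chromosome II from 4482569 to 4490050, *fip1* and *fio1*, the permease and ferroxidase of iron uptake, *fbp1* and *wwm3*, and, on the lower side, *SPBC359.01*, *alr2* and *aat1* on chromosome II from 105128 to 113048. Some neighbours overlap or are divergent, and reads of overlapping transcripts cannot be told apart.

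Letters of regulatory elements were counted in the 250 bases before the annotated transcript start, on both strands, in 259 promoters of higher genes, 165 of lower genes and all 5113 of protein-coding genes. The CRE core TGACGT stood in 15.8% of the higher, 5.45% of the lower and 5.52% of all promoters. The STRE core CCCCTC or CCCCGC stood in 12.7%, 2.42% and 2.62%. Both cores together stood in 7 promoters of higher genes, in 0 of lower genes and in 15 of all. The 7 genes were *vta1*, *idn1*, *cit1*, *gpa2*, *SPAC26F1.07*, *wwm3* and *knh2*, and the cores of *idn1* and *wwm3* are among the sequences shown above. The gluconate genes had the STRE core in 3 of 4 promoters. Of the leading higher genes, *isp3* had the CRE core, *mug24* the STRE core and *wwm3* both, and the others had neither. Of the genes that the study selected, *dak2*, *ght1*, *SPAC11D3.18c* and *SPAC11D3.19* had the STRE core. The others, *fbp1*, *ght3*, *mug14* and *gld1* among them, had neither core in this window. The study describes a CRE and an STRE upstream of *fbp1*, CRE-like and STRE-like sequences at *ght3* and STRE-like ones at *mug14*. Exact letters in a short window thus do not show that these genes lack such elements. With 1000 bases before the coding sequence, the CRE core stood in 26.6%, 13.9% and 14.7% and the STRE core in 24.7%, 7.27% and 9.84% of the same sets.

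The TR-box core TTCTTTGTT stood in 6.18% of promoters of higher genes, 0% of lower genes and 1.62% of all. With 1000 bases before the coding sequence, it stood in 12.7%, 4.85% and 6.32% of the same sets. Of 30 genes on the P cell, M cell and mating lists, 11 had it, and 8 of these were among the 12 higher members, namely *ste11*, *ste4*, *ste6*, *ste7*, *rgs1*, *spk1*, *mei2* and *mfm1*. The CCAAT letters of the CCAAT-binding factor stood in 40.9%, 33.9% and 35.3% of higher, lower and all promoters. GATAA, the core of GATA factors such as Gaf1 and Fep1, stood in 47.1%, 58.2% and 54.2%, and the forkhead core GTAAACA in 13.5%, 15.2% and 14.8%. A match is a description of the sequence and not a bound site.

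**Figure D5:**
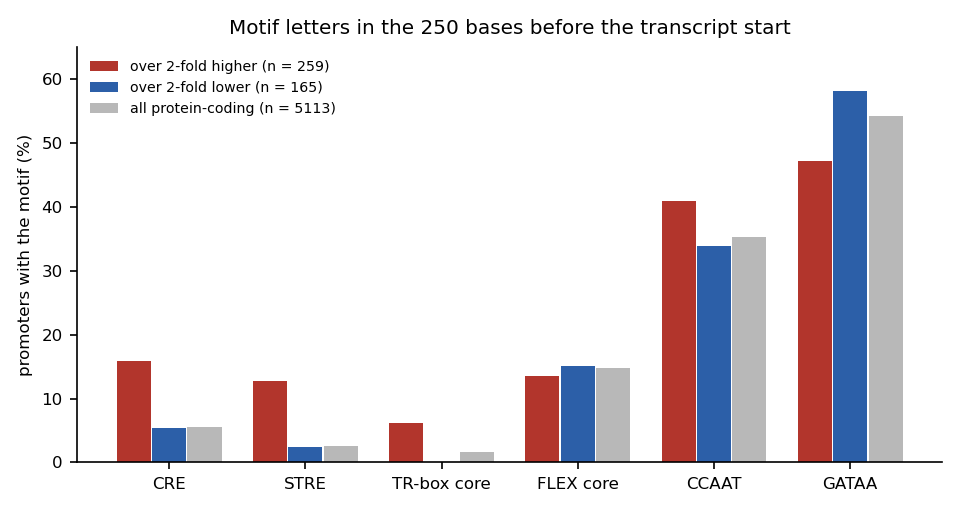
Share of promoters (y axis, percent) that hold each motif on either strand in the 250 bases before the transcript start, among the 259 higher genes (red), the 165 lower genes (blue) and all 5113 protein-coding genes (grey). CRE (15.8%), STRE (12.7%) and the TR-box core (6.18%) are more frequent among the higher genes than among all, and the other 3 motifs differ less.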

How the data were processed

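The authors aligned reads from 9 poly(A)-selected libraries to ASM294v2 (hisat2), assigned them to PomBase genes (featureCounts) and deposited TPM values and, as the other deposited column used, feature lengths in bases. The submitters' processing notes also name fastp and SAMtools, and versions are not given in the sources used here. Per-sample columns that were not used numbered 0. Groups came from the labels.

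Whole reads were recovered as TPM times length over the smallest step of a library, which gave whole numbers (within 0.001) for 100% of the values and totals of 36652045 to 54303622 reads. Ratios have exact Clopper-Pearson 95% intervals, and log2 ratios used TPM plus 1. A call needed a ratio past 2-fold and 10 TPM in the higher library. With 1 library a side no p-value was computed. All 5323 features entered: 5113 protein-coding genes, 171 tRNA genes, 32 pseudogenes and 7 of no type in the reference, where 5316 identifiers matched.

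Names, positions and sequences came from ASM294v3 with its RefSeq annotation, where all 2748 features of 1 coding segment had the ends of the deposited table. Members and lists were chosen with earlier results of these data known, and 7 lists were put together after the values were seen. Named genes were the 12 leading in each direction (50 TPM or more in the higher library, without strain genes and the 17 selected genes), all strain, P cell and M cell genes, and the called members of each other list, at most 4 a direction. Others, among them members that did not pass, were chosen after their values were seen. A called list member is not reported here. Of list genes 1 was not matched, and no *tf2* retrotransposon is in the table.

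Alternatives were pseudocounts of 0.1 and 10, a TPM minimum of 100 or none, folds of 1.5 and 3, 3 other scalings (median-of-ratios size factors, a common upper quartile, TPM without the 10 most abundant features), protein-coding features only, features that overlap no other gene, 1000 bases before the coding sequence, and 50 kb from the ends. Calculations were tested on simulated data, in Python 3.11.15 with matplotlib 3.10.9, scipy 1.17.1, pandas 2.3.3 and numpy 2.4.6.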

Additional observations from a re-analysis of the deposited data

Results flagged for a closer look

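Of the 24 leading genes and the members of all lists, 7 lay on opposite sides in the 2 starvation media, higher in the library labelled *tup11∆/tup12∆* under nitrogen starvation and lower under glucose starvation. Over all features, 13 of the 260 higher ones were called lower under glucose starvation, and 6 of the 169 lower ones were called higher there. The difference between the media has no replicate and was not tested. *mug114* had a log2 ratio of 3.95 under nitrogen starvation and −3.19 under glucose starvation, with 1005 TPM in wild-type cells as against 109 TPM in the mutant library there. *gcd1*, annotated as a glucose-6-phosphate dehydrogenase, had 4.0 and −2.69, with 1132 and 174 TPM under glucose starvation. *dak2*, a dihydroxyacetone kinase, had 3.38 and −2.49, with 2943 and 523 TPM under glucose starvation. *isp5*, an amino acid permease, had 1.01 and −2.44, with 411 and 74.7 TPM. *ght5*, the high-affinity glucose transporter, had 1.82 and −1.31, with 3522 and 1418 TPM, and *ght4* had 1.21 and −1.39, with 703 and 269 TPM. *mal1*, an alpha-glucosidase, had 1.35 and −1.05, with 144 and 68.9 TPM. In wild-type cells each of the 7 stood higher under glucose starvation than under nitrogen starvation. The S-adenosylmethionine synthetase gene *sam1* lay on opposite sides under nitrogen starvation, with a log2 ratio of −1.18, and in the glucose rich medium, with 1.07 (917 and 1929 TPM), which was not tested either.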

How the results depend on the processing

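No paired analysis was possible because each condition has 1 library, and for the same reason no library could be left out. The counts of 260 higher and 169 lower features were 222 and 202 with median-of-ratios scaling, 213 and 223 with upper-quartile scaling (48.9% higher, against 60.6%), and 298 and 297 without a TPM minimum (50.1%). The median log2 ratio of 0.029 was 0.030 and 0.025 with pseudocounts of 0.1 and 10, 0.031 among protein-coding features, 0.034 among features that overlap no other gene, 0.011 without a TPM minimum, 0.0105 without the 10 most abundant features, 0.022 with a minimum of 100 TPM, −0.065 with median-of-ratios and −0.098 with upper-quartile scaling. With a minimum of 100 TPM, 161 features were higher. With a fold of 1.5, 576 were higher and 458 lower, and with a fold of 3, 139 and 43 (76.4% higher). Without overlapping genes, 68 were higher and 37 lower, with 38 list members and 6 of the 24 leading genes among them. Higher and lower features shared with the glucose rich medium numbered 184 and 95 with a fold of 1.5, 71 and 6 with a fold of 3, 45 and 9 with a minimum of 100 TPM, and 33 and 4 without overlapping genes, and without a minimum 70 lower ones were shared. Those shared with glucose starvation numbered 230 and 237, 56 and 16, 58 and 25, and 27 and 12 in the same order, with 99 lower ones without a minimum and 30 with median-of-ratios scaling. In the 1000 bases before the coding sequence, 26.6% of the higher genes had the CRE and 24.7% the STRE core. Within 50 kb of the ends, 5 of 71 features (7.04%) were higher, against 17.8% within 100 kb. Of those at 10 TPM or more in either library these are 62.5% of 8 against 40.7% of 59, and of those at 10 TPM in wild-type cells 2 of 5 against 15 of 50 were higher. The cause of these shifts was not tested, apart from thresholds that admit more or fewer features. With 1 library a side, spread between cultures is unknown, and genes near 2-fold, such as *isp5* and *idh2*, are called or not by small shifts.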

Other observations

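Other groups were put together after their values were seen, and their counts describe these genes only. In the pentose phosphate pathway, 3 of 8 genes were higher in the library labelled *tup11∆/tup12∆* under nitrogen starvation and none was lower, with a median log2 ratio of 0.57. They were *SPAC3C7.13c*, a second glucose-6-phosphate dehydrogenase, with 42.5 TPM in wild-type cells as against 334 TPM in the mutant library, *rki1*, ribose 5-phosphate isomerase, with 54.6 and 235 TPM, and *tal1*, transaldolase, with 1058 and 2849 TPM. The main glucose-6-phosphate dehydrogenase gene *zwf1* had 379 and 524 TPM and did not pass 2-fold.

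Among 14 genes of sulfate assimilation and methionine synthesis, 5 were lower and none was higher, with a median of −0.48. These were the sulfate transporter gene *sul2* with 42.9 and 15.6 TPM, the kinase gene *met14* with 233 and 85.9 TPM, the homoserine acetyltransferase gene *met6* with 432 and 153 TPM, the cysteine synthase gene *cys11* with 286 and 114 TPM and the S-adenosylmethionine synthetase gene *sam1* with 2111 and 933 TPM. In the triple mutant *sul2* had 111 TPM and *met14* 242 TPM, at or above the wild-type level, while *met6* had 145 TPM. These counts held under the 3 other scalings of the libraries.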
